A study of Mus musculus with 7 samples.

Results

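The Wnt pathway ligands, receptors and modulators of the mouse neural crest and dorsal neural tube were followed across single-cell libraries as a set of 49 genes. The genes were taken by symbol from the feature lists of the libraries, where each of the 49 was found once among 32285 listed genes. They comprise 9 ligands, 14 receptors and co-receptors, 9 secreted modulators, 7 genes of the R-spondin axis, 4 intracellular components and 6 feedback targets. The rule takes genes by name, but the list was chosen with earlier results of these data known.

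Single-cell RNA-seq by the droplet method of 10x Genomics was made from EGFP-positive cells sorted from embryos in which Wnt1-Cre had switched on a ROSA-EGFP reporter. All embryos thus carried Wnt1-Cre and 1 reporter allele (Wnt1-Cre/+;ROSA-EGFPf/+ in the controls, Swiss-Webster mixed background), and the driver marks the dorsal neural tube and the neural crest that leaves it. Controls gave 1 library at E8.5 (anterior part of the embryo), 1 at E9.5 (pharyngeal apparatus with the heart, first arch included) and 2 at E10.5 (arches 2 to 6 with the heart). Embryos whose titles name them Tbx1null gave 1 library at E9.5 and 2 at E10.5 (the region below arch 1 with the heart). By the study's sample list, the dissections of E9.5 and E10.5 also held neural tube in both genotypes. Each library was a pool of embryos, and by the study's sample list the pools were smallest for both nulls of E10.5. The genotype field of the null samples reads Wnt1-Cre/+;Tbx1+/-;ROSA-EGFPf/+, which is a heterozygote, so the title and the field conflict. The sample list among the study's supplements gives Tbx1-/- for all 3, as the titles do, and null is used here as the name. The E8.5 library was made with the v2 kit, the null E9.5 and the first null E10.5 library with v3, and the other 4 with v3.1. Kit and genotype therefore cannot be told apart at E9.5, and the nulls of E10.5 differ in kit.

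Wnt proteins are lipid-modified ligands that bind Frizzled receptors with the co-receptors Lrp5 and Lrp6, or with Ror1 and Ror2. In the canonical branch this stops the Axin complex from degrading β-catenin, which then enters the nucleus with Tcf and Lef factors. Secreted inhibitors act on the ligand (Sfrp proteins, Frzb, Wif1, Notum) or on the co-receptor (Dkk2, Sost), and R-spondins raise the number of receptors at the surface by holding back the ligases Znrf3 and Rnf43. In the embryo Wnt1 and Wnt3a come from the dorsal midline of the neural tube, where they act on crest induction and expansion, while Wnt5a is known from outgrowing face, limb and arch mesenchyme.

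The cells were placed in 4 classes by their UMIs (unique molecular identifiers, each counting 1 captured transcript). Mesenchymal cells held at least 2 UMIs of Twist1, Prrx1 and Prrx2 in sum, and gave between 2232 and 7076 cells a library. Of the remaining cells, those with Rspo1 and Rspo3 together formed the roof plate class, those with at least 2 UMIs of Sox10 the Sox10 class, and those with at least 2 UMIs of Sox1, Sox2 and Sox3 and fewer than 2 of neuronal genes the neural progenitor class. The 4 classes held the sums in which each gene was measured, as CPM, counts scaled to a common total per library with TMM factors. The roof plate class was small, with 30 cells at E8.5 and 103 to 215 in the other libraries. Libraries shared at most 44 cell barcodes. In the second null library of E10.5 a sum of 5 blood genes stood at 7.14 to 11.4 CPM in all 4 classes, against at most 3.64 CPM in the other libraries.

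The check markers separated the classes in part. Pdgfra, a mesenchymal receptor, stood at 30.6 to 71.1 CPM in the mesenchymal class of the E9.5 and E10.5 libraries and at 0.277 to 2.44 CPM in the Sox10 and neural progenitor classes. Lmx1a, a roof plate factor, stood at 32.7 to 92.7 CPM in roof plate cells of those libraries, against 0.765 to 4.00 CPM in neural progenitors. Of the cells with Rspo1 and Rspo3, 28 of 187 and 39 of 215 at E9.5 also held at least 2 UMIs of Lmx1a and Gdf7 in sum. At E10.5 these were 48 of 104 and 55 of 124 in the controls and 102 of 191 and 46 of 103 in the nulls. At E8.5 they were 2 of 30, no UMI of Gdf7 or Bmp6 was counted, and Pax6 stood at 109 CPM against 34.0 CPM in progenitors, so at that stage the name roof plate stands for the gate alone. Most gated cells of E9.5 also held fewer than 2 UMIs of Lmx1a and Gdf7, so the name is less sure there. The mesenchymal class was mixed. At E10.5 the summed level of 7 neural progenitor markers in it was 230.4 and 76.7 CPM in the controls and 338 and 527 CPM in the nulls, and 6 neuronal markers stood at 91.5 and 61.3 against 132 and 672 CPM. At E8.5, 1667 of its 2773 cells also held at least 2 UMIs of Sox10. Of all cells with at least 2 UMIs of Sox10, 720 of 1293 in the control and 643 of 1088 in the null fell in it at E9.5. At E10.5 these were 12 of 204 and 21 of 526 in the controls and 145 of 1220 and 166 of 722 in the nulls. A strict gate was therefore set after the values had been seen, with at least 5 UMIs of the mesenchymal genes and none of Sox10, Sox1 to Sox3 or the neuronal genes. It left 19.4 to 75.9% of the mesenchymal cells in the E9.5 and E10.5 libraries, 433 cells in the second null library of E10.5 and only 181 at E8.5. Under it the summed neural progenitor markers stood at 52.8, 50.3, 56.2 and 107 CPM in the same order. The neuronal markers stood at 38.3, 29.5, 31.9 and 130 CPM, so the second null library still lay above the other 3, with Tubb3 at 77.3 CPM against at most 17.9 CPM in those. Values from the first gate are called broad below. In each series of values the E9.5 pair gives the control and then the null, and E10.5 gives replicate 1 and then replicate 2.

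**Figure D1:**
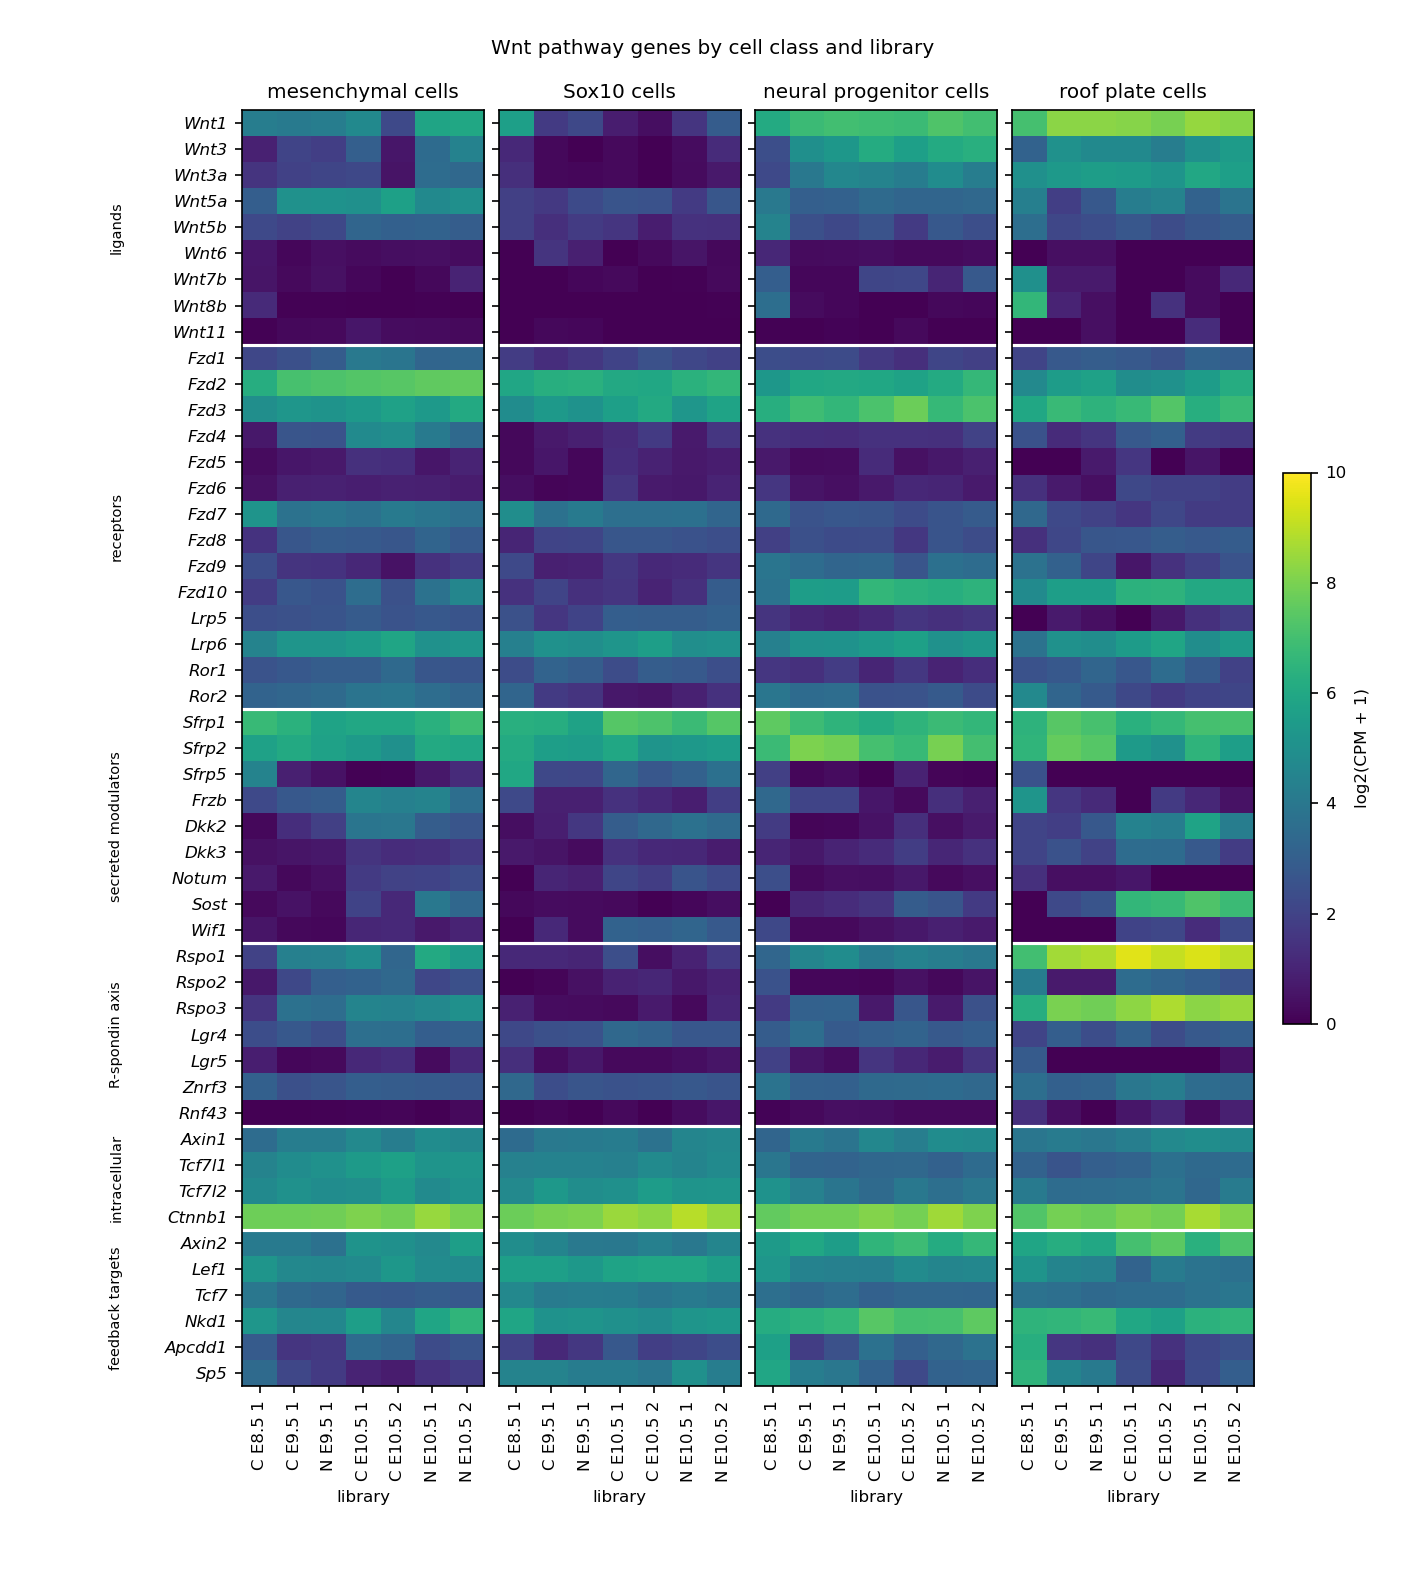
Levels of the 49 genes (rows, grouped by role) in each library (columns, C control and N null) of the 4 classes under the broad mesenchymal gate, as colour on a scale of log2(CPM + 1). Wnt1 reaches 342 CPM in roof plate cells and stays at or below 6.42 CPM in Sox10 cells after E8.5, and Ctnnb1 is high in every class.

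The members differed between the classes in both directions, with Wnt1, Wnt3 and Fzd10 higher in neural progenitors and Wnt5a, Rspo2 and Fzd4 higher in mesenchymal cells. Mesenchymal and neural progenitor cells of the same 6 libraries were compared with the library as a block. Of 45 members tested, 18 were higher in mesenchymal cells and 12 lower (adjusted p under 0.05), and 26 of these 30 went the same way in all 6 libraries. The 18 include Rspo3. It is no result here, because cells with Rspo1 and Rspo3 had been set aside from the progenitors while 152 to 298 such cells a library stayed in the mesenchymal class. Over all genes 25.5% were higher and 20.5% lower. The median log2 fold change was 0.18 for the members and 0.04 for all genes tested. Under the strict gate 19 were higher and 15 lower of 42, beside 28.4% and 23.6% of all genes. Among them 16 of the 18 (not Rspo3) and 11 of the 12 were again called in the same direction. Sox10 cells against mesenchymal cells gave 6 members higher and 21 lower of 45, beside 14.9% and 19.0% of all genes. Against the strict class 9 were higher and 15 lower of 40, beside 17.5% and 21.2%. All 6 of the higher members and 15 of the 21 lower ones were called again, and Fzd3, Nkd1 and Sfrp1 joined the higher ones. Roof plate cells against neural progenitors gave 9 higher and 10 lower of 32 tested, beside 22.3% and 22.2% of all genes. Of the 9, Dkk2 and Ror1 passed the low-count filter through the roof plate sums alone, so their calls are no support for a difference. A second list of 57 Wnt pathway genes outside the set gave 23 higher and 10 lower of 47 tested in mesenchymal cells against neural progenitors, 6 and 16 of 45 in Sox10 cells against mesenchymal cells, and 8 and 9 of 36 in roof plate cells. The mesenchymal sums enter both of the first comparisons and the progenitor sums enter the first and the last. With cells thinned to 5000 UMIs roof plate cells gave 6 higher and 5 lower of 22 tested, beside 18.9% and 17.8% of all genes. With roof plate cells chosen by Lmx1a and Gdf7 instead, 11 were higher and 11 lower of 34, Rspo1 and Rspo3 included. Over all genes 42.1% were called in either direction in that fit. Summed counts cannot tell apart fewer cells with a transcript and less RNA of it per cell, here and in all comparisons that follow.

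**Figure D2:**
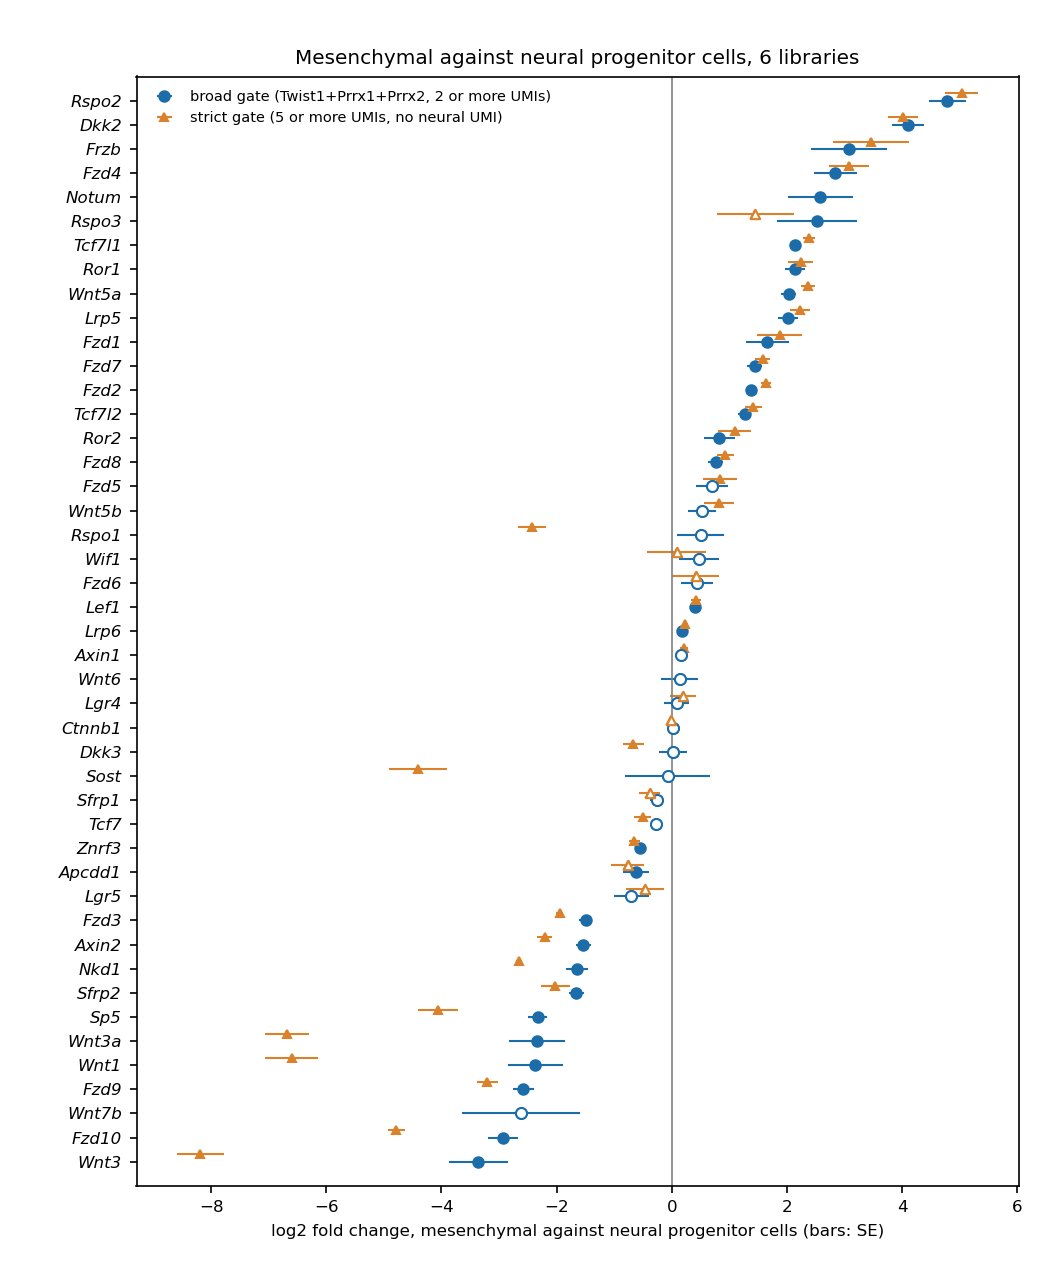
Log2 fold changes of the 45 members tested in mesenchymal cells against neural progenitors over 6 libraries, with the SE as bars, under the broad gate (circles) and the strict gate (triangles), open where the adjusted p did not pass 0.05. Rspo2 and Dkk2 lie far to the mesenchymal side at 4.79 and 4.10 under the broad gate, and Wnt3 and Fzd10 far to the neural side at -3.36 and -2.93.

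The cells were sorted by a reporter that Wnt1-Cre had switched on, so the neural classes favour the lineage that expressed Wnt1. Among the ligands, Wnt1 was the most abundant in these classes. In roof plate cells it stood at 131 CPM at E8.5, 304 and 303 at E9.5, 288 and 247 in the E10.5 controls and 342 and 295 in the E10.5 nulls. Neural progenitors held 69.2 CPM at E8.5, 112 and 124 at E9.5, 119 and 113 in the E10.5 controls and 152 and 124 in the E10.5 nulls. The roof plate was above the progenitors in every library, by a log2 fold change of 1.252 ± 0.051 (SE, adjusted p = 3.07e-07). In Sox10 cells Wnt1 was highest in the E8.5 library, with 48.8 CPM at E8.5, 2.25 and 3.49 at E9.5, 0.753 and 0.277 in the E10.5 controls and 1.88 and 6.42 in the E10.5 nulls. The broad mesenchymal class gave 18.1 CPM at E8.5, 16.4 and 17.8 at E9.5, 25.99 and 3.58 in the E10.5 controls and 56.6 and 61.5 in the E10.5 nulls, whereas the strict gate gave 2.11 CPM at E8.5, 0.835 and 1.65 at E9.5, 0.639 and 0.308 in the E10.5 controls and 1.82 and 4.81 in the E10.5 nulls. The mesenchymal level of Wnt1 thus rested largely on cells with UMIs of neural genes or few UMIs of mesenchymal ones, and so did the comparison of Sox10 with mesenchymal cells, which turned from -3.62 to 0.57 on the log2 scale under the strict gate.

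Wnt3a, a second ligand of the dorsal midline, followed Wnt1 at lower levels. It stood in roof plate cells at 31.7 CPM at E8.5, 40.3 and 46.2 at E9.5, 44.1 and 35.03 in the E10.5 controls and 62.9 and 49.3 in the E10.5 nulls. In neural progenitors it stood at 3.62 CPM at E8.5, 14.95 and 23.5 at E9.5, 21.1 and 17.1 in the E10.5 controls and 28.1 and 17.98 in the E10.5 nulls, and the roof plate was again higher (log2 fold change 1.18 ± 0.08 (SE), adjusted p = 5.39e-06). Wnt3 was called in the opposite direction. Neural progenitors held 4.25 CPM at E8.5, 30.96 and 37.96 at E9.5, 70.4 and 48.4 in the E10.5 controls and 69.00 and 78.8 in the E10.5 nulls. Its roof plate level was 7.92 CPM at E8.5, 32.01 and 25.98 at E9.5, 25.6 and 18.1 in the E10.5 controls and 31.6 and 44.00 in the E10.5 nulls, lower than in progenitors (log2 fold change -0.87 ± 0.16 (SE), adjusted p = 0.00198), although not in the control E9.5 library or at E8.5. The broad mesenchymal class held 0.904 CPM at E8.5, 3.19 and 2.62 at E9.5, 7.21 and 0.518 in the E10.5 controls and 10.2 and 20.4 in the E10.5 nulls for Wnt3. Under the strict gate Wnt3a stood at 0.0617 to 0.844 CPM and Wnt3 at 0.0206 to 1.27 CPM over the E9.5 and E10.5 libraries.

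Wnt5a, a ligand of the non-canonical branch, had the highest mean level of the ligands in the mesenchyme. Its level there was 7.03 CPM at E8.5, 32.4 and 32.9 at E9.5, 31.2 and 50.6 in the E10.5 controls and 26.1 and 30.7 in the E10.5 nulls. Under the strict gate it was 11.4 CPM at E8.5, 43.2 and 41.3 at E9.5, 34.9 and 52.9 in the E10.5 controls and 34.6 and 48.5 in the E10.5 nulls, higher than under the broad gate in each library. Neural progenitors held 7.19 to 10.04 CPM over the E9.5 and E10.5 libraries. Sox10 cells held 2.73 CPM at E8.5, 2.16 and 3.73 at E9.5, 5.08 and 4.71 in the E10.5 controls and 2.21 and 5.44 in the E10.5 nulls, all below the lowest mesenchymal library. Mesenchymal cells were above neural progenitors (log2 fold change 2.03 ± 0.13 (SE), adjusted p = 2.01e-05), and Sox10 cells were lower than mesenchymal cells (log2 fold change -3.20 ± 0.18 (SE), adjusted p = 1.26e-05). Wnt5b, its close relative, stood in mesenchymal cells at 3.67 CPM at E8.5, 2.95 and 3.50 at E9.5, 8.72 and 7.33 in the E10.5 controls and 7.77 and 6.77 in the E10.5 nulls. Sox10 cells held 2.73 CPM at E8.5, 1.55 and 2.33 at E9.5, 1.88 and 0.739 in the E10.5 controls and 1.67 and 1.61 in the E10.5 nulls, which was lower (log2 fold change -1.88 ± 0.31 (SE), adjusted p = 0.00244). Wnt6, Wnt7b, Wnt8b and Wnt11 stayed under 1 CPM in mesenchymal cells after E8.5. Wnt8b and Wnt7b, known from the forebrain, reached 96.6 and 31.7 CPM in the 30 cells of the roof plate gate at E8.5, and at most 1.7 CPM and 1.22 CPM in later roof plate cells.

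Among the receptors, Fzd2, Fzd3 and Lrp6 had the highest mean levels in mesenchymal and Sox10 cells, and Fzd3, Fzd10 and Fzd2 in both neural classes. Fzd2 was the most abundant Frizzled transcript of the mesenchyme, at 73.5 CPM at E8.5, 134 and 147 at E9.5, 160.0 and 169 in the E10.5 controls and 185 and 190.5 in the E10.5 nulls. In neural progenitors it stood at 38.2 CPM at E8.5, 60.5 and 64.9 at E9.5, 61.03 and 53.7 in the E10.5 controls and 67.4 and 100.0 in the E10.5 nulls, and each mesenchymal value was above the progenitor value of its library (log2 fold change 1.38 ± 0.09 (SE), adjusted p = 2.51e-05). Sox10 cells, at 59.4 CPM at E8.5, 75.3 and 79.7 at E9.5, 64.8 and 61.96 in the E10.5 controls and 82.7 and 97.2 in the E10.5 nulls, were lower than mesenchymal cells (log2 fold change -1.11 ± 0.09 (SE), adjusted p = 6.73e-05). In roof plate cells it stood at 25.3 CPM at E8.5, 45.01 and 51.3 at E9.5, 29.1 and 32.2 in the E10.5 controls and 45.3 and 71.7 in the E10.5 nulls.

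Fzd3, known for its part in axon guidance and planar polarity, was highest in the neural classes. Neural progenitors held 75.6 CPM at E8.5, 117 and 98.4 at E9.5, 142 and 217 in the E10.5 controls and 102 and 143 in the E10.5 nulls. Roof plate cells held 61.8 CPM at E8.5, 107 and 88.2 at E9.5, 106 and 161 in the E10.5 controls and 75.96 and 109 in the E10.5 nulls, and mesenchymal cells 29.8 CPM at E8.5, 37.2 and 33.8 at E9.5, 41.7 and 51.2 in the E10.5 controls and 40.1 and 65.9 in the E10.5 nulls. Mesenchymal cells were lower than progenitors in all 6 libraries (log2 fold change -1.50 ± 0.12 (SE), adjusted p = 4.95e-05), and roof plate cells were slightly lower (log2 fold change -0.33 ± 0.06 (SE), adjusted p = 0.00136). In Sox10 cells the level was 27.8 CPM at E8.5, 41.3 and 33.5 at E9.5, 49.3 and 65.9 in the E10.5 controls and 36.8 and 55.4 in the E10.5 nulls, with a log2 difference of 0.04 ± 0.09 (SE) from the broad mesenchymal class and adjusted p = 0.732. Against the strict class it was called higher in Sox10 cells (log2 fold change 0.48 ± 0.06 (SE), adjusted p = 4.56e-04).

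Fzd10, a Frizzled of the dorsal neural tube, was shared by both neural classes. It stood in progenitors at 12.9 CPM at E8.5, 46.6 and 44.8 at E9.5, 97.4 and 84.2 in the E10.5 controls and 76.5 and 86.5 in the E10.5 nulls. The roof plate class held 26.9 CPM at E8.5, 47.7 and 47.8 at E9.5, 84.8 and 86.5 in the E10.5 controls and 64.7 and 65.2 in the E10.5 nulls, and the difference between them did not pass the test (log2 fold change -0.13 ± 0.08 (SE), adjusted p = 0.174). The broad mesenchymal class gave 4.61 to 22.99 CPM and the strict gate 1.17 to 3.99 CPM over the 6 later libraries.

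Lrp6, the co-receptor of canonical signalling, was present in every class. Its mesenchymal level was 21.3 CPM at E8.5, 35.9 and 35.8 at E9.5, 44.2 and 57.9 in the E10.5 controls and 32.4 and 35.7 in the E10.5 nulls. Sox10 cells held 19.4 CPM at E8.5, 31.96 and 29.6 at E9.5, 35.8 and 47.6 in the E10.5 controls and 29.9 and 31.96 in the E10.5 nulls, and neural progenitors 19.6 CPM at E8.5, 32.5 and 32.9 at E9.5, 40.2 and 51.1 in the E10.5 controls and 32.03 and 37.7 in the E10.5 nulls. The class differences were small, 0.18 ± 0.05 between mesenchymal and neural progenitor cells (adjusted p = 0.0243) and -0.23 ± 0.05 between Sox10 and mesenchymal cells (adjusted p = 0.00597). Its relative Lrp5 was higher in mesenchymal than in progenitor cells (log2 fold change 2.02 ± 0.17 (SE), adjusted p = 7.46e-05).

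Of the other receptors, Fzd1, Fzd4, Fzd7, Fzd8, Ror1 and Ror2 were also higher in mesenchymal cells than in neural progenitors, and Fzd9 was lower. Ror2 went this way in 4 of 6 libraries, and the others named here in all 6. Fzd4, which also binds the non-Wnt ligand Norrin, had the greatest log2 fold change of these receptors (log2 fold change 2.84 ± 0.37 (SE), adjusted p = 5.48e-04), with 4.95 to 29.97 CPM in mesenchymal cells and 1.44 to 2.92 CPM in progenitors. Ror2, a receptor for Wnt5a, was low in Sox10 cells (0.462 to 2.25 CPM against 8.83 to 14.1 CPM in mesenchymal cells, log2 fold change -3.07 ± 0.34 (SE), adjusted p = 3.30e-04). Ror1 was called higher in roof plate cells than in progenitors (log2 fold change 2.00 ± 0.23 (SE), adjusted p = 1.32e-04). It passed the low-count filter there through the roof plate sums alone, so this call is no support for a difference. Fzd5 and Fzd6 stayed at or below 2.01 and 3.51 CPM in every class after E8.5.

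Sfrp1 and Sfrp2, soluble Frizzled-related proteins that bind Wnt ligands, had the highest mean levels of the secreted modulators in mesenchymal, Sox10 and progenitor cells. Sfrp1 stood in mesenchymal cells at 105 CPM at E8.5, 83.1 and 55.4 at E9.5, 63.1 and 62.8 in the E10.5 controls and 79.8 and 118 in the E10.5 nulls. In Sox10 cells it stood at 78.1 CPM at E8.5, 74.2 and 53.2 at E9.5, 163 and 146 in the E10.5 controls and 111 and 163 in the E10.5 nulls. Neural progenitors held 184 CPM at E8.5, 114 and 89.2 at E9.5, 70.97 and 89.2 in the E10.5 controls and 112 and 97.99 in the E10.5 nulls, and roof plate cells 87.1 CPM at E8.5, 167 and 136 at E9.5, 80.3 and 100.0 in the E10.5 controls and 133 and 136 in the E10.5 nulls. The mesenchymal and progenitor ranges overlapped, and the difference did not pass the test (log2 fold change -0.25 ± 0.12 (SE), adjusted p = 0.13). Sox10 cells were called higher against the strict mesenchymal class (log2 fold change 0.65 ± 0.18 (SE), adjusted p = 0.0237) but not against the broad one (adjusted p = 0.0755).

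Sfrp2 was highest in progenitors, at 113 CPM at E8.5, 261 and 231 at E9.5, 132 and 104 in the E10.5 controls and 249 and 128 in the E10.5 nulls. Mesenchymal cells held 51.3 CPM at E8.5, 66.7 and 52.1 at E9.5, 42.9 and 31.6 in the E10.5 controls and 66.6 and 60.1 in the E10.5 nulls, lower than progenitors in each of the 6 libraries (log2 fold change -1.66 ± 0.13 (SE), adjusted p = 5.68e-05). The roof plate level was 93.5 CPM at E8.5, 201 and 164 at E9.5, 42.6 and 32.2 in the E10.5 controls and 88.8 and 48.1 in the E10.5 nulls, also lower (log2 fold change -1.11 ± 0.17 (SE), adjusted p = 7.04e-04). In Sox10 cells the level was 69.00 CPM at E8.5, 48.03 and 45.2 at E9.5, 60.6 and 35.00 in the E10.5 controls and 39.5 and 45.6 in the E10.5 nulls.

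Sfrp5 was found mainly in Sox10 cells, at 60.8 CPM at E8.5, 3.54 and 3.38 at E9.5, 8.85 and 5.63 in the E10.5 controls and 7.70 and 11.8 in the E10.5 nulls. The E8.5 library stood far above the others. In mesenchymal cells it stood at 21.4 CPM at E8.5, 0.862 and 0.405 at E9.5, 0.0469 and 0.0797 in the E10.5 controls and 0.543 and 1.38 in the E10.5 nulls, below the Sox10 value of each library (log2 fold change 3.87 ± 0.62 (SE), adjusted p = 0.00199). Frzb, a related decoy, had the reverse pattern, and mesenchymal cells held 3.65 CPM at E8.5, 5.72 and 6.45 at E9.5, 22.2 and 19.3 in the E10.5 controls and 21.1 and 11.4 in the E10.5 nulls. Sox10 cells held 3.64 CPM at E8.5, 0.864 and 0.815 at E9.5, 1.69 and 1.20 in the E10.5 controls and 0.788 and 2.59 in the E10.5 nulls, and progenitors 9.53 CPM at E8.5, 3.18 and 3.13 at E9.5, 0.51 and 0.191 in the E10.5 controls and 1.52 and 0.844 in the E10.5 nulls. Frzb was higher in mesenchymal cells than in progenitors (log2 fold change 3.08 ± 0.67 (SE), adjusted p = 0.00629) and lower in Sox10 cells than in mesenchymal ones (log2 fold change -3.42 ± 0.34 (SE), adjusted p = 1.86e-04).

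Sost, which encodes sclerostin, an Lrp5 and Lrp6 inhibitor best known from bone, was a roof plate transcript at E10.5. It stood in roof plate cells at 0 CPM at E8.5, 3.67 and 5.13 at E9.5, 98.3 and 106 in the E10.5 controls and 149.6 and 111 in the E10.5 nulls, above Sfrp2 in all 4 libraries of E10.5. In progenitors it ranged over 1.11 to 6.48 CPM, and the roof plate was higher in each of the 6 later libraries (log2 fold change 4.61 ± 0.40 (SE), adjusted p = 1.95e-05). The broad mesenchymal class gave 0.185 CPM at E8.5, 0.399 and 0.177 at E9.5, 3.04 and 1.21 in the E10.5 controls and 15.1 and 9.22 in the E10.5 nulls, and the strict gate at most 0.217 CPM. Dkk2, a second Lrp ligand, was higher in mesenchymal cells than in progenitors (log2 fold change 4.10 ± 0.28 (SE), adjusted p = 2.50e-05). It was also called higher in roof plate cells (log2 fold change 5.56 ± 0.42 (SE), adjusted p = 8.22e-06). In the roof plate comparison it passed the low-count filter through the roof plate sums alone, so that call is no support for a difference. Wif1, which binds Wnts directly, was higher in Sox10 cells than in mesenchymal cells (log2 fold change 2.81 ± 0.29 (SE), adjusted p = 2.22e-04), at 6.01 to 8.64 CPM in Sox10 cells of E10.5. Notum, an enzyme that removes the lipid from Wnts, was higher in mesenchymal cells than in progenitors under the broad gate (log2 fold change 2.58 ± 0.56 (SE), adjusted p = 0.00668) but stayed at or below 3.87 CPM there.

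Within the R-spondin axis, Rspo1 and Rspo3 defined the roof plate class, so their levels in it are no result. When roof plate cells were instead chosen by at least 2 UMIs of Lmx1a and Gdf7 in sum, Rspo1 and Rspo3 were higher in them than in progenitors, with log2 fold changes of 3.50 ± 0.20 and 3.85 ± 0.22 (SE). In neural progenitors, from which those cells had been set aside, Rspo1 stood at 8.79 CPM at E8.5, 22.4 and 28.01 at E9.5, 16.3 and 20.4 in the E10.5 controls and 18.1 and 15.1 in the E10.5 nulls. The broad mesenchymal class held 2.93 CPM at E8.5, 19.4 and 19.9 at E9.5, 28.3 and 8.87 in the E10.5 controls and 66.4 and 43.9 in the E10.5 nulls, and the strict gate left 2.64 CPM at E8.5, 4.14 and 2.89 at E9.5, 4.92 and 3.23 in the E10.5 controls and 2.04 and 4.73 in the E10.5 nulls. Sox10 cells held 1.21 CPM at E8.5, 1.21 and 1.05 at E9.5, 4.33 and 0.277 in the E10.5 controls and 0.94 and 2.28 in the E10.5 nulls.

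Rspo3 was detected in mesenchymal cells under both gates, with lower levels under the strict one. It stood in the broad class at 1.83 CPM at E8.5, 12.2 and 11.00 at E9.5, 21.8 and 20.5 in the E10.5 controls and 24.6 and 31.5 in the E10.5 nulls. Under the strict gate it was 1.06 CPM at E8.5, 6.13 and 5.95 at E9.5, 13.9 and 16.2 in the E10.5 controls and 8.19 and 8.53 in the E10.5 nulls. At E10.5 both nulls thus lay above both controls under the broad gate (log2 fold change 0.38 ± 0.21 (SE), adjusted p = 0.429). They lay below them under the strict gate (log2 fold change -0.85 ± 0.22 (SE), adjusted p = 0.241), and neither difference passed the test. Sox10 cells were at or below 1.09 CPM of Rspo3 (log2 fold change -5.64 ± 0.26 (SE), adjusted p = 6.91e-06 against the broad class, log2 fold change -4.42 ± 0.32 (SE), adjusted p = 2.68e-05 against the strict one). The roof plate gate set aside at most 1 cell a library from the Sox10 class, while 152 to 298 cells a library with Rspo1 and Rspo3 stayed in the broad mesenchymal class. Rspo2 was nearly absent from progenitors and Sox10 cells after E8.5, at 0.0864 to 1.11 CPM. Mesenchymal cells held 0.572 CPM at E8.5, 3.55 and 7.21 at E9.5, 7.91 and 9.51 in the E10.5 controls and 3.40 and 4.46 in the E10.5 nulls (log2 fold change 4.79 ± 0.32 (SE), adjusted p = 2.40e-05 against progenitors). Roof plate cells held 17.4 CPM at E8.5, 0.667 and 0.642 at E9.5, 10.5 and 8.48 in the E10.5 controls and 7.01 and 4.89 in the E10.5 nulls.

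The R-spondin receptor Lgr4 was detected in each class. It stood in mesenchymal cells at 4.17 CPM at E8.5, 5.70 and 4.23 at E9.5, 11.7 and 11.3 in the E10.5 controls and 7.03 and 7.34 in the E10.5 nulls. Sox10 cells held 3.49 CPM at E8.5, 4.41 and 4.77 at E9.5, 9.41 and 8.13 in the E10.5 controls and 5.52 and 5.65 in the E10.5 nulls, and progenitors 6.57 CPM at E8.5, 10.8 and 6.13 at E9.5, 7.24 and 8.003 in the E10.5 controls and 6.01 and 7.01 in the E10.5 nulls, with no called difference between mesenchymal cells and progenitors (log2 fold change 0.08 ± 0.22 (SE), adjusted p = 0.787). In roof plate cells it was 3.17 CPM at E8.5, 7.001 and 4.17 at E9.5, 7.53 and 3.96 in the E10.5 controls and 5.84 and 6.93 in the E10.5 nulls. Znrf3, the ligase that removes Frizzleds, stood in progenitors at 13.2 CPM at E8.5, 7.52 and 7.32 at E9.5, 9.69 and 10.1 in the E10.5 controls and 10.3 and 9.35 in the E10.5 nulls. Roof plate cells held 11.1 CPM at E8.5, 7.33 and 8.02 at E9.5, 14.5 and 18.1 in the E10.5 controls and 10.5 and 9.78 in the E10.5 nulls, and Sox10 cells 9.40 CPM at E8.5, 4.15 and 5.24 at E9.5, 4.71 and 4.99 in the E10.5 controls and 5.82 and 5.02 in the E10.5 nulls. Mesenchymal cells held 4.49 to 6.89 CPM over the 6 later libraries, lower than progenitors (log2 fold change -0.55 ± 0.08 (SE), adjusted p = 9.38e-04). Lgr5 stayed at or below 1.89 CPM and Rnf43 at or below 1.13 CPM in all classes after E8.5.

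Of the intracellular components, Ctnnb1, the gene of β-catenin, stood in mesenchymal cells at 222 CPM at E8.5, 218 and 228 at E9.5, 265 and 235 in the E10.5 controls and 349.9 and 254 in the E10.5 nulls. Progenitors held 193 CPM at E8.5, 231 and 232 at E9.5, 279.7 and 242 in the E10.5 controls and 378 and 268 in the E10.5 nulls, a log2 difference of 0.02 ± 0.04 (SE). The roof plate level was 154 CPM at E8.5, 237 and 216 at E9.5, 269 and 236 in the E10.5 controls and 409 and 281 in the E10.5 nulls. Sox10 cells held 218 CPM at E8.5, 246 and 263 at E9.5, 357 and 315 in the E10.5 controls and 484 and 352 in the E10.5 nulls, above mesenchymal cells after E8.5 (log2 fold change 0.35 ± 0.05 (SE), adjusted p = 0.00118). The first null library of E10.5 was the highest in each class.

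Axin1, the scaffold of the degradation complex, stood in mesenchymal cells at 10.7 CPM at E8.5, 18.1 and 17.97 at E9.5, 25.02 and 17.9 in the E10.5 controls and 28.2 and 23.9 in the E10.5 nulls. Progenitors held 8.60 CPM at E8.5, 16.2 and 13.3 at E9.5, 23.9 and 18.3 in the E10.5 controls and 28.3 and 26.9 in the E10.5 nulls, and roof plate cells 14.3 CPM at E8.5, 16.7 and 14.4 at E9.5, 18.6 and 24.9 in the E10.5 controls and 28.98 and 26.5 in the E10.5 nulls. Tcf7l1, a Tcf factor known mainly as a repressor, was higher in mesenchymal cells, at 21.5 CPM at E8.5, 28.1 and 32.1 at E9.5, 42.8 and 50.6 in the E10.5 controls and 35.2 and 35.8 in the E10.5 nulls. Sox10 cells held 20.02 CPM at E8.5, 20.8 and 20.7 at E9.5, 19.6 and 26.7 in the E10.5 controls and 21.6 and 26.7 in the E10.5 nulls, and progenitors 7.66 to 10.2 CPM over the 6 later libraries (log2 fold change 2.15 ± 0.10 (SE), adjusted p = 5.52e-06 for mesenchymal cells against progenitors). Tcf7l2 stood in mesenchymal cells at 25.7 CPM at E8.5, 32.7 and 28.02 at E9.5, 29.8 and 42.2 in the E10.5 controls and 26.4 and 33.01 in the E10.5 nulls. Sox10 cells held 25.2 CPM at E8.5, 39.2 and 28.9 at E9.5, 31.8 and 45.1 in the E10.5 controls and 35.4 and 35.7 in the E10.5 nulls. In progenitors it was 33.2 CPM at E8.5, 20.3 and 13.8 at E9.5, 10.04 and 15.2 in the E10.5 controls and 11.5 and 14.7 in the E10.5 nulls, and in roof plate cells 15.8 CPM at E8.5, 10.7 and 10.9 at E9.5, 11.5 and 13.6 in the E10.5 controls and 9.12 and 16.7 in the E10.5 nulls. Mesenchymal cells were above progenitors after E8.5 (log2 fold change 1.26 ± 0.12 (SE), adjusted p = 1.18e-04).

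Feedback targets, which the pathway switches on in many tissues, gave 4 of 6 members lower and 1 higher in mesenchymal cells than in progenitors, beside 20.5% and 25.5% of all genes. Of the 4 lower, Apcdd1 was not called lower under the strict gate, which called Tcf7 lower as well as the others. Axin2, the most general of these targets, stood in roof plate cells at 58.6 CPM at E8.5, 75.01 and 63.5 at E9.5, 132 and 177 in the E10.5 controls and 79.9 and 147 in the E10.5 nulls. Progenitors held 42.9 CPM at E8.5, 61.9 and 45.96 at E9.5, 92.9 and 115 in the E10.5 controls and 69.97 and 101 in the E10.5 nulls. The broad mesenchymal class held 15.7 CPM at E8.5, 15.7 and 12.1 at E9.5, 34.2 and 31.3 in the E10.5 controls and 25.04 and 48.3 in the E10.5 nulls, and Sox10 cells 14.9 to 22.2 CPM over the 6 later libraries. Strict levels of Axin2 and Nkd1 at E10.5 differed from the broad ones and are given by position below. The roof plate was above progenitors (log2 fold change 0.42 ± 0.07 (SE), adjusted p = 7.56e-04), and mesenchymal cells were below them (log2 fold change -1.54 ± 0.13 (SE), adjusted p = 6.90e-05). Nkd1, a feedback antagonist of Dishevelled, stood in progenitors at 72.9 CPM at E8.5, 85.1 and 97.4 at E9.5, 166 and 129.9 in the E10.5 controls and 137 and 184 in the E10.5 nulls. Roof plate cells held 88.7 CPM at E8.5, 95.4 and 107 at E9.5, 61.2 and 50.3 in the E10.5 controls and 85.3 and 92.5 in the E10.5 nulls. They were called lower (log2 fold change -0.66 ± 0.20 (SE), adjusted p = 0.0213), which held in the 4 E10.5 libraries and not at E9.5. The broad mesenchymal class held 37.2 CPM at E8.5, 23.3 and 23.6 at E9.5, 47.8 and 22.8 in the E10.5 controls and 58.2 and 91.5 in the E10.5 nulls, and Sox10 cells 57.6 CPM at E8.5, 33.6 and 35.1 at E9.5, 31.6 and 28.2 in the E10.5 controls and 36.1 and 39.7 in the E10.5 nulls.

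Sp5, a transcription factor and direct target of the pathway, set the Sox10 class apart from the mesenchyme. Sox10 cells held 21.2 CPM at E8.5, 21.1 and 17.5 at E9.5, 17.1 and 14.2 in the E10.5 controls and 31.1 and 18.1 in the E10.5 nulls. Mesenchymal cells held 9.97 CPM at E8.5, 3.42 and 2.24 at E9.5, 0.973 and 0.685 in the E10.5 controls and 1.68 and 2.42 in the E10.5 nulls, below the Sox10 value of each library (log2 fold change 3.48 ± 0.28 (SE), adjusted p = 7.22e-05). In progenitors the level was 60.1 CPM at E8.5, 18.1 and 14.8 at E9.5, 7.75 and 3.62 in the E10.5 controls and 7.79 and 8.31 in the E10.5 nulls, above mesenchymal cells (log2 fold change -2.33 ± 0.16 (SE), adjusted p = 2.99e-05), and in roof plate cells 90.3 CPM at E8.5, 21.7 and 16.04 at E9.5, 4.01 and 1.13 in the E10.5 controls and 3.74 and 6.93 in the E10.5 nulls, with the E8.5 library highest in both. Lef1 was also higher in Sox10 cells, at 48.4 CPM at E8.5, 49.5 and 38.8 at E9.5, 54.03 and 59.6 in the E10.5 controls and 59.3 and 46.7 in the E10.5 nulls. Mesenchymal cells held 36.3 CPM at E8.5, 24.4 and 23.8 at E9.5, 26.6 and 38.4 in the E10.5 controls and 26.96 and 26.3 in the E10.5 nulls, which was lower (log2 fold change 0.88 ± 0.08 (SE), adjusted p = 1.22e-04). Progenitors held 36.7 CPM at E8.5, 20.7 and 19.5 at E9.5, 19.02 and 27.4 in the E10.5 controls and 22.2 and 23.4 in the E10.5 nulls, lower than mesenchymal cells (log2 fold change 0.41 ± 0.06 (SE), adjusted p = 0.00136), and roof plate cells held 8.03 to 22.00 CPM over the 6 later libraries (log2 fold change -0.53 ± 0.17 (SE), adjusted p = 0.0265 against progenitors), lower in the 4 E10.5 libraries and not at E9.5. Tcf7 was higher in Sox10 than in mesenchymal cells (log2 fold change 1.18 ± 0.10 (SE), adjusted p = 7.73e-05), and Apcdd1, a membrane inhibitor of the pathway, was lower in roof plate cells than in progenitors (log2 fold change -1.46 ± 0.21 (SE), adjusted p = 4.11e-04).

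The upstream sequences of Sp5 and Axin2 are shown because these targets, both called higher in progenitors than in mesenchymal cells, had different calls elsewhere. Sp5 was called higher in Sox10 than in mesenchymal cells and Axin2 was not (log2 fold change -0.50 ± 0.24 (SE), adjusted p = 0.14), while Axin2 was called higher in roof plate cells than in progenitors and Sp5 was not (log2 fold change -0.31 ± 0.21 (SE), adjusted p = 0.251). Each is the 250 bases before the gene's start in RefSeq (GRCm38.p6), Sp5 at chr2:70474673-70474922 and Axin2 at chr11:108920099-108920348, both on the plus strand, and lies upstream of the first exon. Capitals mark the core Tcf/Lef motif CTTTGA, searched on both strands.
Sp5: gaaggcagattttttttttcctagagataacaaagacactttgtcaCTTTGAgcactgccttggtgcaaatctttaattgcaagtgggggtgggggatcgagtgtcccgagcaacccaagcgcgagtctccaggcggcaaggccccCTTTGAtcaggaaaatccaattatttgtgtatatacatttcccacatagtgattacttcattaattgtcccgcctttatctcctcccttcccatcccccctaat
Axin2: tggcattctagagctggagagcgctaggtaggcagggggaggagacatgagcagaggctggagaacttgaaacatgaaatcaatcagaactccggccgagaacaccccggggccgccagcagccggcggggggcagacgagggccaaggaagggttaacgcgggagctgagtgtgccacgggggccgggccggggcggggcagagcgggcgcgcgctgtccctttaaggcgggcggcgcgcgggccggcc
The Sp5 window held the motif 2 times, at 204 and 104 bases before the start, and the Axin2 window did not hold it. Among all 32851 promoter windows of this length 13.8% held it, and among the 42 windows that matched 32 of the members 16.7% did. These matches are a description of the letters in the windows.

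Between E9.5 and E10.5, 14 members rose in the mesenchyme under the broad gate, 6 of them secreted modulators and 3 of them R-spondin axis genes. Both genotypes entered the test, with genotype as a term. Of 48 members tested by edgeR the 14 compare with 11.5% of all genes that rose, and the other members passed in neither direction, while 12.1% of all genes fell. For each of the 14, both E10.5 libraries of a genotype lay above the E9.5 library of that genotype. The median log2 fold change was 0.42 for the members and 0.07 for all genes, and the 57 other pathway genes gave 14 that rose and 4 that fell of 51 tested. By role, 6 of 9 secreted modulators, 3 of 7 R-spondin axis genes, 2 of 6 feedback targets, 2 of 14 receptors and 1 of 8 ligands rose.

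Among the inhibitors that rose, Dkk2 stood at 0.148 CPM at E8.5, 1.46 and 2.71 at E9.5, 13.6 and 14.5 in the E10.5 controls and 6.82 and 5.18 in the E10.5 nulls (log2 fold change 2.07 ± 0.48 (SE), adjusted p = 0.0248). Frzb rose with log2 fold change 1.58 ± 0.28 (SE), adjusted p = 0.0121, from 5.72 and 6.45 CPM at E9.5 to 11.4 to 22.2 CPM at E10.5. Notum rose from 0.176 and 0.332 CPM to 2.23 to 3.87 CPM (log2 fold change 3.59 ± 0.35 (SE), adjusted p = 0.00466), and Wif1 rose with log2 fold change 2.67 ± 0.42 (SE), adjusted p = 0.00894 but stayed at or below 1.21 CPM. Fzd4 was the receptor with the greatest change (log2 fold change 1.86 ± 0.32 (SE), adjusted p = 0.0111), and Fzd1 rose with log2 fold change 1.05 ± 0.30 (SE), adjusted p = 0.0436. Of the R-spondin axis, Rspo3 (log2 fold change 1.06 ± 0.21 (SE), adjusted p = 0.0162), Lgr4 (log2 fold change 0.89 ± 0.18 (SE), adjusted p = 0.0176) and Lgr5 (log2 fold change 2.66 ± 0.75 (SE), adjusted p = 0.042) rose. Axin2 (log2 fold change 1.32 ± 0.31 (SE), adjusted p = 0.0239) and Apcdd1 (log2 fold change 1.64 ± 0.34 (SE), adjusted p = 0.0176) were the feedback targets that rose, and Wnt5b the ligand (log2 fold change 1.24 ± 0.21 (SE), adjusted p = 0.0111). Dkk3 and Sost passed the test under the broad gate only, where the 7 neural progenitor markers summed to 181 and 172 CPM at E9.5. Under the strict gate Dkk3 had a log2 fold change of 0.98 ± 0.36 (SE, adjusted p = 0.0697) and Sost one of -0.17 (adjusted p = 0.883). The other 12 were called under both gates. The E9.5 dissection held the first arch and that of E10.5 did not, so the stage and the dissected tissue cannot be told apart. With the control E9.5 library left out, edgeR called 0 of 48 members (0.0% of all genes), with 16 at an unadjusted p under 0.05 (25.0% of all genes). With the null E9.5 library left out 5 rose and 1 fell, beside 3.25% of all genes called in either direction. Without control replicate 1 of E10.5, 6 rose, beside 4.35% of all genes, while 4.03% fell. DESeq2 was not run on the stages. The strict gate gave 15 rises and 1 fall of 47 members, beside 29.3% of all genes called in either direction. It added rises of Fzd10, Nkd1 and Tcf7l1 and a fall of Tcf7 (log2 fold change -0.76 ± 0.19 (SE), adjusted p = 0.0168).

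**Figure D3:**
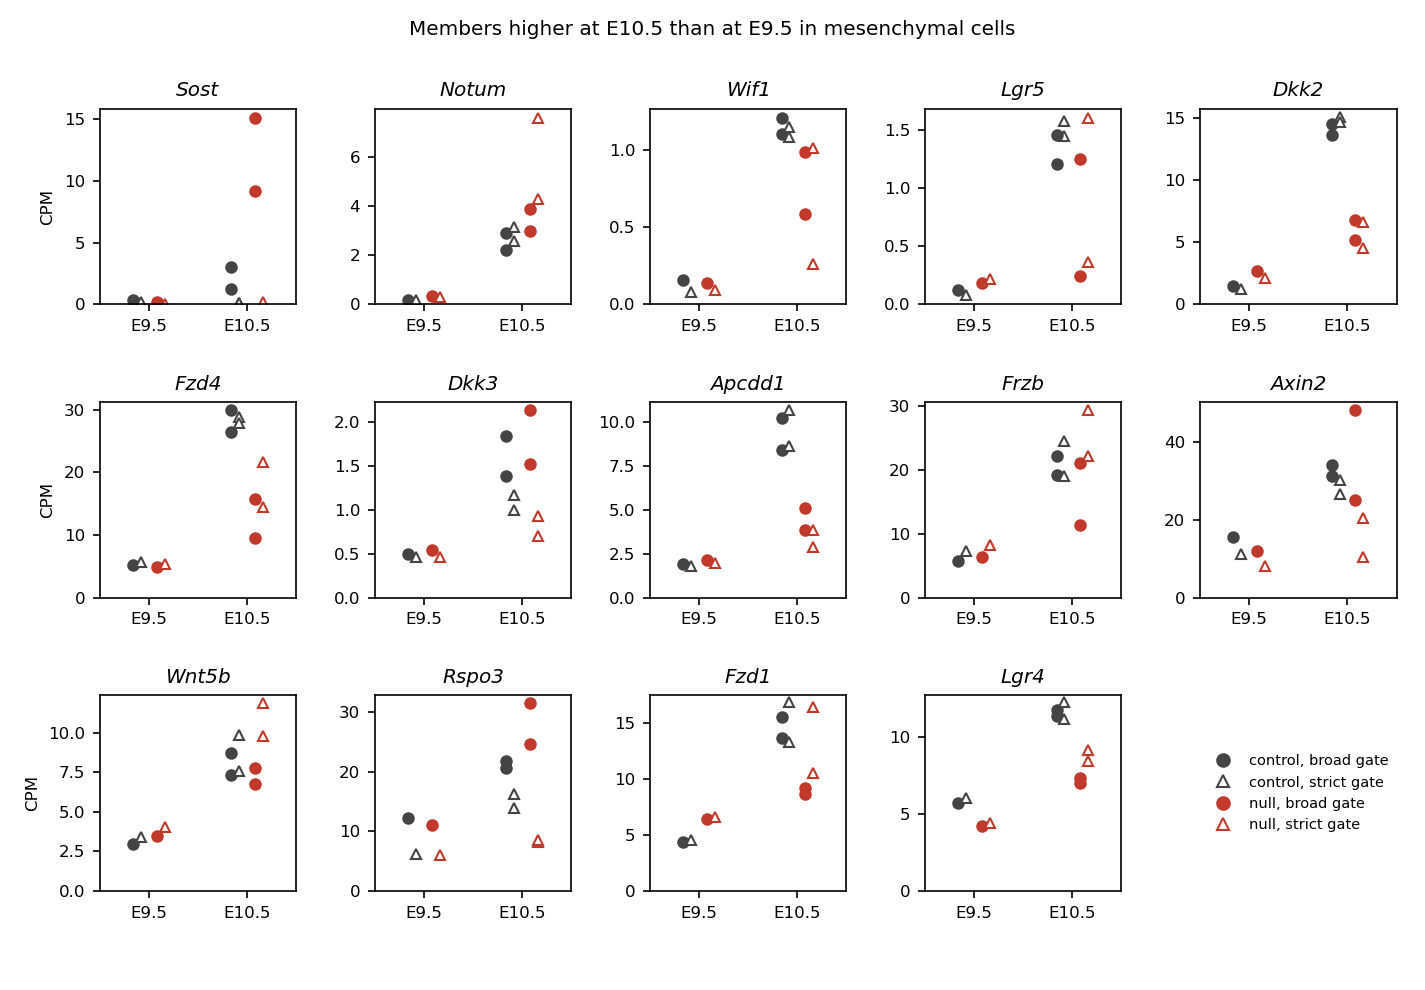
Mesenchymal levels (CPM, linear axes from 0) of the 14 members that rose between E9.5 and E10.5, by library, with controls in grey and nulls in red, circles for the broad and open triangles for the strict gate. For Dkk2, Fzd4 and Frzb the 4 E10.5 libraries sit above both E9.5 libraries, from 5.18, 9.59 and 11.4 CPM upward under the broad gate, while the triangles of Sost stay near 0 at both stages.

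Position within the mesenchyme was read from Hand2, a gene of the ventral arches and outflow tract, and from Hox genes of group 3, which mark the third arch and the tissue behind it. Mesenchymal cells with and without a UMI of these genes were summed apart in the same 6 libraries. With Hand2, 9 members were higher and 13 lower of 45 tested, beside 12.7% and 11.2% of all genes. Without control replicate 1 of E10.5 these were 5 higher and 13 lower, beside 7.11% and 7.62%. With Hox group 3, 12 members were higher and 8 lower of 44 tested, beside 9.0% and 10.0% of all genes. For Hand2 the strict gate gave 6 higher and 7 lower of 40, beside 5.03% and 5.57% of all genes. Of these, 5 of the 6 and 2 of the 7 were calls of the broad gate too, while Tcf7 was called higher and Ctnnb1, Fzd2, Fzd4, Tcf7l1 and Tcf7l2 lower under the strict gate alone. For Hox group 3 it gave 3 higher and 6 lower of 40, beside 3.94% and 3.99% of all genes. Of these, 2 of the 3 and 5 of the 6 were broad calls in the same direction, and Tcf7l1 was the added higher member and Axin2 the added lower one. With cells thinned to 5000 UMIs, 4 members were higher and 2 lower of 35 for Hox group 3, beside 3.19% and 2.66% of all genes. The 57 other genes gave 12 and 12 of 47 for Hand2 and 13 and 9 of 48 for Hox group 3.

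Rspo1 and Rspo2 differed by position in opposite directions under both gates. Rspo2 was higher in Hand2 cells (log2 fold change 1.32 ± 0.26 (SE), adjusted p = 0.00876) and lower in Hox group 3 cells (log2 fold change -1.84 ± 0.19 (SE), adjusted p = 6.08e-04). Rspo1 was lower in Hand2 cells (log2 fold change -4.00 ± 0.36 (SE), adjusted p = 3.06e-04) and higher in Hox group 3 cells (log2 fold change 1.29 ± 0.23 (SE), adjusted p = 0.00716). Rspo3 was lower in Hand2 cells (log2 fold change -1.75 ± 0.14 (SE), adjusted p = 2.06e-04). It was higher in Hox group 3 cells under the broad gate (log2 fold change 0.75 ± 0.10 (SE), adjusted p = 0.00155) but not the strict one (log2 fold change 0.07 ± 0.09 (SE), adjusted p = 0.717). The strict log2 fold changes were 1.05 and -1.37 for Rspo2, -2.17 and 0.60 for Rspo1 and -0.86 for Rspo3 in Hand2 cells, all called.

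Fzd1, Fzd5, Lef1 and Notum were the other members higher in Hand2 cells under both gates, with broad log2 fold changes of 0.68, 1.29, 0.48 and 1.24. Dkk2, Fzd1, Fzd5 and Lrp6 were the others lower in Hox group 3 cells, with -0.61, -0.63, -1.15 and -0.18, and Tcf7 the other member higher (0.70). Wnt1, Wnt3, Wnt3a and Sost were also lower in Hand2 cells and higher in Hox group 3 cells under the broad gate. The strict fits did not test Wnt3, Wnt3a or Sost. They tested Wnt1 without a call, at -0.51 ± 0.26 (SE, adjusted p = 0.27) for Hand2 and 0.91 ± 0.27 (SE, adjusted p = 0.0671) for Hox group 3. Axin2 turned from 0.50 ± 0.12 to a log2 fold change of -0.35 in Hox group 3 cells, and both values passed the test (strict adjusted p = 0.045).

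**Figure D4:**
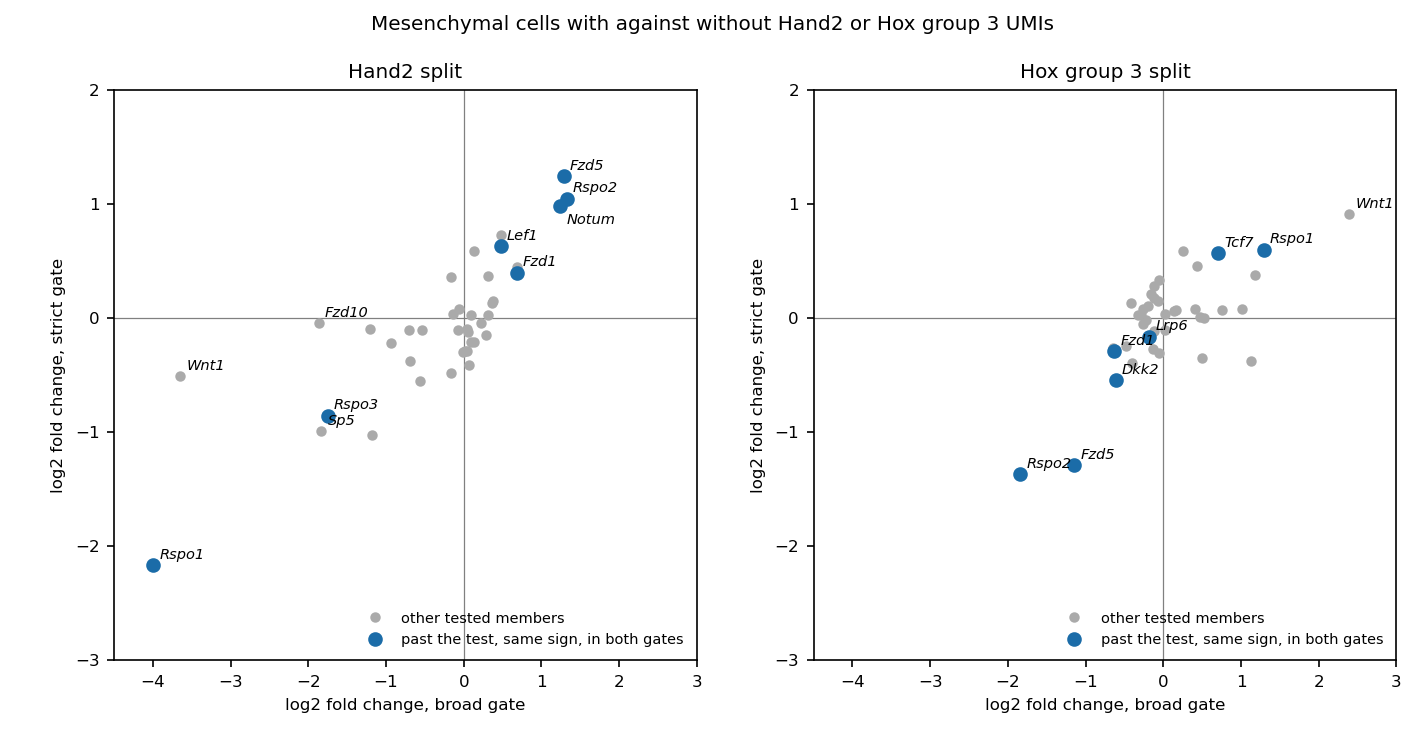
Log2 fold changes of the members tested under both gates in mesenchymal cells with against without Hand2 (left) and with against without Hox group 3 genes (right), broad gate on the horizontal and strict gate on the vertical axis. Rspo2 keeps its side under both gates in each panel, and Rspo1 lies far to the negative side for Hand2 at -4.00 under the broad gate.

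Genotype was tested at E10.5 with 2 libraries a group. By edgeR, 0 of 47 members were called in mesenchymal cells, beside 0.1% of all genes, while 20 of 47 had an unadjusted p under 0.05, beside 15.0% of all genes. DESeq2 called 3 members higher and 4 lower in the nulls, beside 4.48% of all genes. Under the strict gate edgeR called 0 of 44 members, beside 0.0746% of all genes. In Sox10 cells edgeR called 0 of 39 (0.0316% of all genes), 6 had an unadjusted p under 0.05 (9.79% of all genes) and DESeq2 called 0 (0.513%). In neural progenitors the same numbers were 0 of 42 (0.117%), 3 (7.57%) and 0 (0.194%). In roof plate cells they were 0 of 29 (0.138%), 9 (10.2%) and 0 (0.188%), with 17 members given no adjusted p by DESeq2. The next fits keep a single library in a group. Without control replicate 1 the only control was replicate 2, which had the lowest neural markers in the broad mesenchymal class. Leaving out control replicate 1 gave 7 calls in mesenchymal cells, all higher in the nulls, beside 1.34% of all genes higher and 0.587% lower. Leaving out null replicate 2 gave 3 higher and 3 lower in roof plate cells, beside 1.46% and 2.76% of all genes.

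The members that DESeq2 called lower in the nulls of the mesenchyme were Dkk2, Apcdd1, Rspo2 and Fzd4. Of these Dkk2, Apcdd1 and Fzd4, but not Rspo2, were also among the members that rose between E9.5 and E10.5. By the study's sample list, embryos of the first null library of E10.5 had fewer somites than those of the other E10.5 libraries. The part of this difference was not tested. Dkk2 stood at 13.6 and 14.5 CPM in the controls and 6.82 and 5.18 CPM in the nulls, and under the strict gate at 15.04 and 14.6 CPM in the controls and 4.52 and 6.67 CPM in the nulls. Both nulls lay below both controls in each case (edgeR broad log2 fold change -1.25 ± 0.24 (SE), adjusted p = 0.184, strict log2 fold change -1.44 ± 0.26 (SE), adjusted p = 0.136). These members were picked by a call on the broad sums. The strict cells are a part of the broad ones, so the strict values are no independent support. How many of all genes separate the genotypes in this way is not given here. Apcdd1 stood at 10.3 and 8.42 CPM in the controls and 3.89 and 5.13 CPM in the nulls, and under the strict gate at 10.7 and 8.68 CPM in the controls and 2.90 and 3.88 CPM in the nulls, again without overlap (edgeR broad log2 fold change -1.07 ± 0.25 (SE), adjusted p = 0.225, strict log2 fold change -1.54 ± 0.27 (SE), adjusted p = 0.125). Rspo2 stood at 7.91 and 9.51 CPM in the controls and 3.40 and 4.46 CPM in the nulls and under the strict gate at 8.67 and 9.70 CPM in the controls and 3.64 and 6.33 CPM in the nulls (edgeR broad log2 fold change -1.17 ± 0.26 (SE), adjusted p = 0.215). Fzd4 stood at 26.5 and 29.97 CPM in the controls and 15.7 and 9.59 CPM in the nulls and under the strict gate at 28.8 and 27.95 CPM in the controls and 21.6 and 14.4 CPM in the nulls (edgeR broad log2 fold change -1.17 ± 0.29 (SE), adjusted p = 0.228).

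The members that DESeq2 called higher were Sfrp5, Rspo1 and Sost. Rspo1 stood at 28.3 and 8.87 CPM in the controls and 66.4 and 43.9 CPM in the nulls, but at 4.92 and 3.23 CPM in the controls and 2.04 and 4.73 CPM in the nulls under the strict gate, where its log2 fold change was -0.34. Sost stood at 3.04 and 1.21 CPM in the controls and 15.1 and 9.22 CPM in the nulls under the broad gate. Under the strict gate it stood at 0.104 and 0.0822 CPM in the controls and 0.14 and 0.169 CPM in the nulls, values near 0 that cannot show a difference. Sfrp5 stood at 0.0469 and 0.0797 CPM in the controls and 0.543 and 1.38 CPM in the nulls, and under the strict gate at 0.0345 and 0.0411 CPM in the controls and 0.0601 and 0.253 CPM in the nulls. It had 14 UMIs in the control sums and 148 in the null sums, and passed the low-count filter of 0.128 CPM through the nulls alone, so its call is no support for a difference. The strict fit tested neither Sost nor Sfrp5. Wnt1 was also higher in the nulls under the broad gate without a call, at 25.99 and 3.58 CPM in the controls and 56.6 and 61.5 CPM in the nulls and under the strict gate 0.639 and 0.308 CPM in the controls and 1.82 and 4.81 CPM in the nulls. The neural markers of the broad class were also higher in the nulls, as given above, and their part in these values was not tested beyond the strict gate.

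The libraries of E10.5 also differed in position. Cells with Hox group 3 genes made up 36.4 and 25.3% of the mesenchymal cells in the controls and 61.9 and 80.6% in the nulls, and 32.1 and 25.8% against 52.1 and 68.4% under the strict gate. Cells with Hand2 made up 41.9 and 42.7% in the controls and 33.8 and 28.9% in the nulls. Under the strict gate these were 49.5 and 45.2% against 45.9 and 44.6%. Strict Dkk2 levels were 9.98 and 10.3 CPM in the controls and 4.46 and 7.36 CPM in the nulls among cells with Hox group 3 genes, and 18.3 and 16.8 CPM in the controls and 4.88 and 6.43 CPM in the nulls among cells without them. For Apcdd1 they were 9.55 and 7.43 CPM in the controls and 3.20 and 3.42 CPM in the nulls with and 11.8 and 9.50 CPM in the controls and 2.76 and 5.59 CPM in the nulls without. Both genes were lower in both nulls on either side of the Hox group 3 split. In the second null library the strict cells without Hox group 3 genes summed to only 2886500 UMIs. The other E10.5 libraries gave 20730800 to 64892900, so its values on that side rest on few counts, and no interval is given. The part of position in the genotype values was not tested. Fzd4 was also lower in both nulls on each side, at 18.3 and 16.7 CPM in the controls and 16.1 and 13.1 CPM in the nulls among cells with Hox group 3 genes. Without them it stood at 35.6 and 33.2 CPM in the controls and 29.04 and 19.8 CPM in the nulls. Rspo2 overlapped among cells with Hox group 3 genes, at 4.86 and 4.42 CPM in the controls and 2.17 and 5.12 CPM in the nulls. It was lower in both nulls among cells without them, at 11.01 and 12.02 CPM in the controls and 5.48 and 10.1 CPM in the nulls. Strict Axin2 was 23.1 and 27.4 CPM in the controls and 9.74 and 22.6 CPM in the nulls with Hox group 3 genes. Without them it was 29.9 and 32.7 CPM against 11.7 and 19.8 CPM. Strict Nkd1 was 24.1 and 23.3 CPM against 23.7 and 28.9 CPM with them. Without them it was 24.4 and 21.4 CPM against 19.1 and 30.7 CPM. Neither gene was called between genotypes by edgeR under either gate.

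Whether the genotype difference itself differed between mesenchymal cells and progenitors was tested as an interaction. By edgeR 0 of 48 members were called (0.0711% of all genes), with 20 at an unadjusted p under 0.05 (11.0% of all genes). Under the strict gate Apcdd1 passed (log2 fold change -1.69 ± 0.22 (SE), adjusted p = 0.0251), beside 0.18% of all genes, with progenitor levels of 12.1 and 7.24 CPM in the controls and 9.34 and 12.8 CPM in the nulls. The interaction of genotype with stage in the mesenchyme called 0 of 48 (0.00579% of all genes), with 9 at an unadjusted p under 0.05 (4.22%). These interactions were not run with DESeq2.

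**Figure D5:**
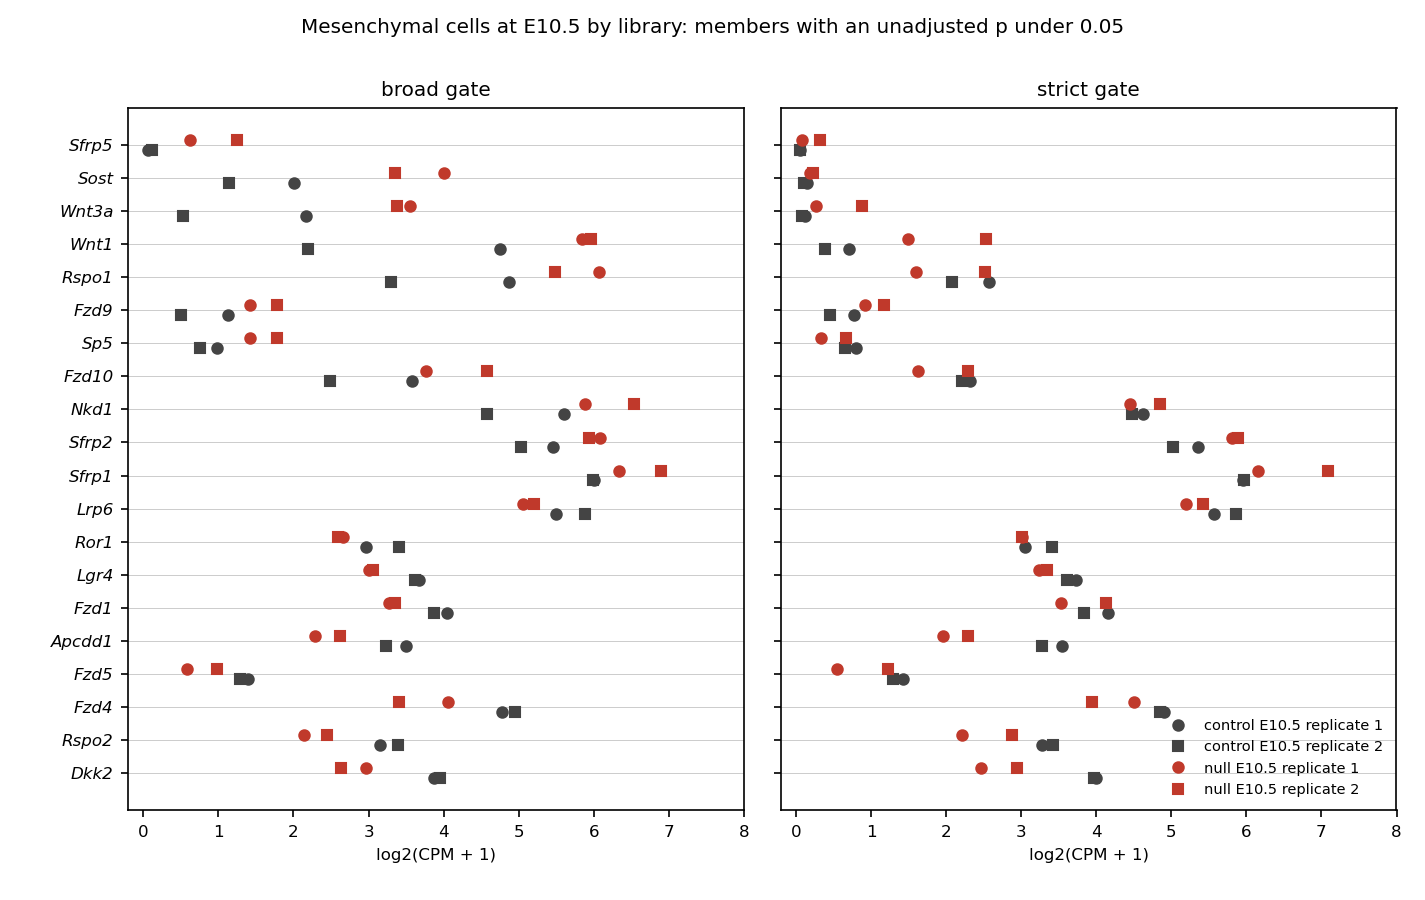
Mesenchymal levels at E10.5, as log2(CPM + 1), of the 20 members with an unadjusted p under 0.05 between genotypes, in 2 control (grey) and 2 null (red) libraries under the broad gate (left) and the strict gate (right). Dkk2 and Apcdd1 are lower in both nulls under both gates, while the Rspo1 and Sost levels of the nulls are far lower under the strict gate than under the broad one.

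Tbx1, the gene named in the null titles, did not separate the genotypes in the broad mesenchyme, at 6.91 and 4.14 CPM in the E10.5 controls and 5.19 and 4.73 CPM in the nulls. Under the strict gate both nulls, at 8.45 and 8.70 CPM, lay above both controls, at 6.79 and 4.41 CPM. In neural progenitors it stood at 1.99 and 2.29 CPM against 0.0323 and 0.0649 CPM. Whether the counted 3′ tags lie outside the altered part of the gene is not given in the sources used here.

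At E9.5 each genotype had 1 library, so values are given with exact 95% Poisson intervals for counting error only and no test. Of 29 members with at least 5 CPM in either mesenchymal library, 2 differed by at least 1.5 times. Rspo2 stood at 3.55 CPM in the control and 7.21 CPM in the null (ratio 2.03, interval 1.80 to 2.29), and Sfrp1 at 83.1 against 55.4 CPM (ratio 0.667, interval 0.646 to 0.687). The Sfrp1 ratio was 0.696 without TMM factors and 0.709 with cells thinned to 5000 UMIs, short of the threshold, and Fzd1 passed it there with 1.54 and 2.18. Over all genes 1.08% were that much higher in the null and 2.66% lower. At E10.5 neither direction was repeated, since Rspo2 was lower in both nulls and Sfrp1 was 63.1 and 62.8 CPM in the controls and 79.8 and 118 CPM in the nulls.

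In the other classes 0 of 17 members passed this rule in Sox10 cells (2.19% of all genes higher and 3.27% lower). In progenitors Wnt3a was higher (15.0 and 23.5 CPM, ratio 1.57) and Lgr4 lower (10.8 and 6.13 CPM, ratio 0.567), of 26 members and beside 0.915% and 2.69% of all genes. In roof plate cells Wnt5a, Fzd8, Ror1 and Dkk2 were higher and Fzd9 and Lgr4 lower, of 28 members and beside 5.83% and 6.81% of all genes. These roof plate sums came from 187 and 215 cells, and the 95% interval of the ratio excluded 1 for Fzd9 only (ratio 0.418, interval 0.178 to 0.914).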

How the data were processed

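The deposited matrices hold UMI counts per gene and cell, made by the authors with Cell Ranger 6.0.1 against mm10, per the labels and processing notes. Cells were kept when 1000 genes or more were detected and no more than 10% of the UMIs were mitochondrial, and the highest Scrublet scores (scanpy 1.11.5) were removed as doublets, at 0.8% per 1000 barcodes. This left 5587 to 9557 cells and 128294715 to 198251325 UMIs a library. Each cell entered 1 class, in the order mesenchymal, roof plate, Sox10, neural progenitor. UMIs were summed per library and class, and the library was the replicate. Nothing says that the E10.5 replicates came from separate litters, so p-values measure the spread between these libraries.

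edgeR 4.0.16 (R 4.3.3) with TMM, filterByExpr and the quasi-likelihood test gave log2 fold changes, with Benjamini-Hochberg adjustment over all genes tested and a threshold of 0.05. DESeq2 1.42.0 was an alternative. E8.5 gave values only. At E9.5 genes with at least 5 CPM in 1 library and a ratio of at least 1.5 were listed. Scripts were tested on simulated data. Levels are 3′ UMI counts not divided by transcript length. Values in each library are given for members past a genotype call or the E9.5 rule and for the 3 highest members of each role in each class, and the rest by range. The members, the lists and the gates were chosen with earlier results of these data known. Intervals cover counting error only.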

Additional observations from a re-analysis of the deposited data

How the results depend on the processing

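With 2 libraries a group at E10.5 the genotype counts depended on the settings. Each count of members is followed in brackets by the percentage of all genes called in the same fit, in either direction. In mesenchymal cells 0 members were called by edgeR with its filter (0.1%), 15 without a filter on low counts, 11 of them higher and 4 lower (6.2%), 7 by DESeq2, 3 higher and 4 lower (4.48%), and 3 with the replicate block, all higher (0.798%). Same-numbered libraries of the genotypes share only a number: the correlation of their deviations was 0.065 in mesenchymal, 0.131 in Sox10, 0.275 in progenitor and 0.134 in roof plate cells, and 2 pairs are too few to settle it. The replicate block gave 2 calls in neural progenitors, 1 higher and 1 lower (4.06%). Without the filter Sox10 cells gave 1 call (1.61%), the interaction with class 14 (3.69%) and the interaction with stage 8 (1.43%). The interaction with class gave 3 calls with cells thinned to 5000 UMIs (0.906%) and 1 under the strict gate (0.18%). Roof plate cells against progenitors gave 11 calls when thinned (36.7%), Hand2 cells 13 under the strict gate (10.6%), and Hox group 3 cells 6 when thinned (5.84%) and 9 under the strict gate (7.93%). At E9.5 a floor of 10 CPM left 1 member in mesenchymal cells (3.34%) and a lower threshold on the ratio gave 6 (13.3%). Without TMM factors (3.5%) and when thinned (4.59%) the count stayed at 2, but as 2 higher and 0 lower, with Fzd1 in place of Sfrp1. The strict gate and the thinning were not the same change, and the cause of these differences was not tested.

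Leaving out each library in turn gave 0 to 7 genotype calls in mesenchymal cells, with 7 higher without control replicate 1 (1.92%) and 1 higher and 1 lower without null replicate 1 (1.9%). It gave 0 to 3 in Sox10 cells, 3 without null replicate 1 (4.3%) and 1 without null replicate 2 (5.54%), and 0 to 1 in progenitors, 1 without null replicate 1 (1.65%) or 2 (1.51%). In roof plate cells it gave 0 to 6, with 1 higher without null replicate 1 (2.38%) and 3 higher and 3 lower without null replicate 2 (4.22%). It gave 0 to 16 calls for stage (0.0 to 29.1%), 0 without the control E9.5 library. The class comparisons gave 28 to 31 calls for mesenchymal cells against progenitors (36.6 to 43.9%), 23 to 27 for Sox10 against mesenchymal cells (23.6 to 34.2%) and 15 to 20 for roof plate cells (31.7 to 45.9%). Position gave 18 to 22 for Hand2 (14.7 to 20.8%) and 16 to 22 for Hox group 3 (10.3 to 17.2%). The interaction with class gave 0 to 13, namely 13 without control replicate 1 (4.39%), 7 without control replicate 2 (1.63%) and 3 without null replicate 1 (1.61%), and that with stage 0 to 4, with 4 without control replicate 1 (0.287%).

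Among members called under the broad gate, or at an unadjusted p under 0.05 for genotype, these changed sign on the log2 scale. For genotype in mesenchymal cells the strict gate gave Fzd10 -0.41, Rspo1 -0.34 and Sp5 -0.81, and thinning gave Sp5 -0.39. For stage it gave Sost -0.17, and for Sox10 against mesenchymal cells Wnt1 0.57. For Hox group 3 thinning gave Fzd2 0.040 and the strict gate gave Fzd2 0.027, Fzd10 -0.38 and Axin2 -0.35. Among members not called under the broad gate, the strict gate called Fzd2 (-0.29) and Tcf7l1 (-0.21) for Hand2, Tcf7l1 (0.21) for Hox group 3, Nkd1 (0.79) for Sox10 against mesenchymal cells and Dkk3 (-0.67) and Rspo1 (-2.43, a gating gene) for mesenchymal cells against progenitors, each on the other side of 0. Rspo3 turned from 0.38 to -0.85 for genotype, uncalled in both. The strict gate was chosen after seeing the data.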
